A study of Homo sapiens with 4 samples.

Results

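The G1 cyclins, the cyclin-dependent kinases (CDKs) they activate and the CIP/KIP inhibitors that bind them were examined in PC9 cells carrying a hairpin against TPX2. The 10 genes were chosen by name: the D-type cyclins CCND1, CCND2 and CCND3, the E-type cyclins CCNE1 and CCNE2, the kinases CDK4, CDK6 and CDK2, and the inhibitors CDKN1A (p21) and CDKN1B (p27). All 10 were among the 18134 genes of the expression table, and 9 of the 10 passed the filter on low counts. PC9 is an established human lung adenocarcinoma line with a mutated, active EGFR. Cells were infected with a pLKO.1 lentivirus that carried either the shTPX2 hairpin, made for partial depletion of TPX2, or the negative control hairpin shNC, and stable lines were then selected with an antibiotic. Poly(A) RNA was sequenced from 2 libraries of shNC cells and 2 libraries of shTPX2 cells, named here by group and library number, with 20906441 to 21972583 expected counts per library and the same batch label on all 4. The sources used here do not say that the libraries came from separate cultures, so the p-values measure only the spread between these libraries, which may be technical. The shTPX2 group rests on 1 hairpin in 1 cell line, and in bulk RNA less RNA of a gene per cell and fewer cells that make it cannot be told apart.

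A cell leaves G1 when D-type cyclins, which respond to growth signals, activate CDK4 and CDK6, and these kinases phosphorylate the retinoblastoma protein RB1. Phosphorylated RB1 releases the E2F factors, which switch on E-type cyclins and the genes of DNA replication, and cyclin E with CDK2 then completes the phosphorylation of RB1. The CIP/KIP proteins p21 and p27 block cyclin E with CDK2, whereas the INK4 proteins block CDK4 and CDK6. In lung adenocarcinoma driven by EGFR, CCND1 is a well known downstream target of the receptor's signalling.

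TPX2, a spindle assembly factor, was examined first because it is the target of the hairpin. The hairpin's 21-base target, shown because it defines the treated group, lies at chr20:31783721-31783741 of GRCh38 (plus strand). It is within the coding part of exon 12 of 1 TPX2 transcript and of exon 13 of the other in GENCODE v29. The whole target occurs in 2 annotated transcripts, both of TPX2, and in 0 of the 92 transcripts of the 10 G1 genes. Only exact matches of all 21 bases were searched, so partial matches of the hairpin to other genes were not tested.
shTPX2 target: cgtgaacttgatcccagaata
TPX2 was at 55.0 and 112 TPM (a level corrected for transcript length and scaled to the same total in each library) in shNC 1 and shNC 2, and at 43.4 and 43.8 TPM in shTPX2 1 and shTPX2 2. Both shTPX2 libraries were below both controls, but the controls stood 2.03-fold apart. The log2 fold change of shTPX2 against shNC was -0.81 (SE 0.32, edgeR quasi-likelihood test, adjusted p = 0.618 over all tested genes). It was -0.24 without shNC 2 and -1.21 without shNC 1, so the size of the measured knockdown rests on which control library is used.

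The 2 libraries whose profiles were most alike were shNC 1 and shTPX2 1 (Pearson's r of log2 CPM over genes 0.983), followed by the shTPX2 pair at 0.979 and the shNC pair at 0.972. The 7 epithelial markers checked, such as EPCAM and the keratins, were above 100 TPM in every library, while the 4 lung lineage markers were at 1.67 TPM or less, with SFTPC at 0 to 0.13 TPM and NKX2-1 at 0.04 to 1.55 TPM. Of 10 markers of other cell types, summed at 143 to 251 TPM in shNC and at 185 to 204 TPM in shTPX2, CD68, a lysosomal protein abundant in macrophages, made up most of the sum at 126 to 220 TPM, with the collagen gene COL1A1 at 5.72 to 11.99 TPM, the endothelial PECAM1 at 4.20 to 14.4 TPM and the globin HBB at 2.08 to 2.91 TPM. The other 6 markers, the leukocyte marker PTPRC among them, were under 1 TPM in every library. COL1A1 and PTPRC had both shTPX2 libraries below both controls, as did NKX2-1 and SFTPB of the lung lineage markers, and no marker had both above. Of all tested genes 30.3% had both below in TPM and 10.7% both above. The part of these markers in any result here was not tested.

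Across all 14048 tested genes, 1998, or 14.2%, met the criteria for differentially expressed genes (DEGs) used here, which are an unadjusted p of at most 0.1 in limma after voom and an absolute log2 fold change of 0.3 or more. The limits are those of the study, and the reading of them as an unadjusted p and an absolute change on the log2 scale was chosen here. Of these, 876 were higher in shTPX2 (6.24% of tested genes) and 1122 were lower (7.99%). TPX2 was among the lower genes, and kept to the criteria without shNC 1 but not without shNC 2, shTPX2 1 or shTPX2 2. On library size alone the split was 578 higher and 1445 lower, and on log2(TPM + 1) it was 440 higher and 1684 lower, where the median over all genes shifted by -0.10. The edgeR test gave 1128 genes at an unadjusted p under 0.05 (8.03%) and 0 genes (0%) at an adjusted p under 0.05, against 111 genes with DESeq2. Among the 9 tested G1 genes, 2 met the DEG criteria, CCNE2 and CCND3, both higher in shTPX2. With 9 genes, 1 gene fewer would bring their share below that of all tested genes. By the edgeR test 1 of the 9, CCNE2, was at an unadjusted p under 0.05, and 0 of the 9 were at an adjusted p under 0.05 by edgeR, voom or DESeq2. The 9 log2 fold changes were 5 above and 4 below 0, with a median of 0.14, beside -0.01 over all tested genes (6863 above and 7185 below).

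**Figure D1:**
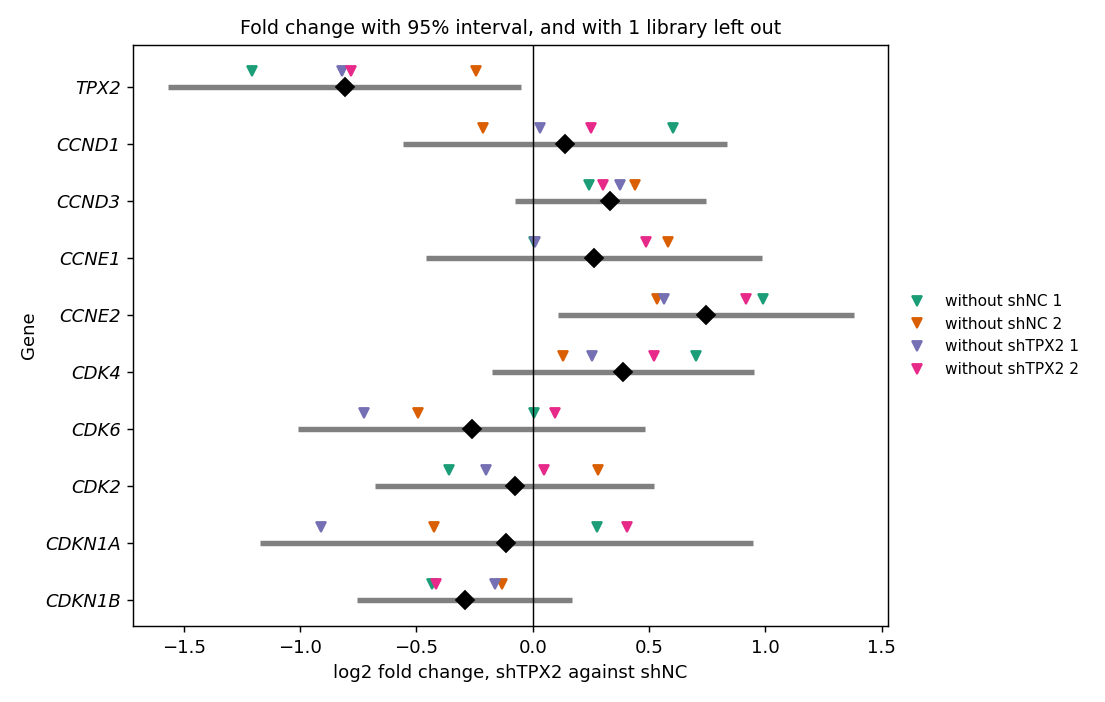
Log2 fold change in shTPX2 against shNC (edgeR) of TPX2 and the 9 tested G1 genes, as a diamond with its 95% confidence interval, and coloured triangles for the fits without 1 library each. Of the G1 genes only CCNE2 has an interval wholly on one side of 0, and the triangles of CCND1, CDK2, CDK6 and CDKN1A lie on both sides of 0.

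The D-type cyclins were led by CCND1 (cyclin D1, gene ID 595, chromosome 11 from 69641087 to 69654474 in GRCh38, plus strand), the G1 gene with the highest level. CCND1 was at 413 and 244 TPM in shNC 1 and 2 and at 353 and 312 TPM in shTPX2 1 and 2. Both shTPX2 values lay between the controls, and 97.6% of all listed genes had a lower mean TPM in shNC. By edgeR the log2 fold change was 0.14 (SE 0.29, adjusted p = 0.927, 95% interval -0.56 to 0.83). Its sign rested on the control library: it was 0.60 without shNC 1, where CCND1 met the DEG criteria, and -0.21 without shNC 2.

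CCND3 (cyclin D3, gene ID 896, chromosome 6 from 41934933 to 42050357, minus strand) was the other D-type cyclin with a substantial level. It was at 125 and 150 TPM in shNC and at 153 and 165 TPM in shTPX2. Both shTPX2 libraries were above both controls, in TPM by a narrow gap between shNC 2 and shTPX2 1. The gap was wider on CPM (counts scaled to library size) with TMM factors, where shNC 2 was at 140.1 and shTPX2 1 at 160.1 CPM. A log2 fold change of 0.33 (SE 0.17, edgeR adjusted p = 0.686, 95% interval -0.08 to 0.74) put CCND3 just within the DEG criteria. CCND3 kept to the criteria without shNC 2 but not without shNC 1, shTPX2 1 or shTPX2 2, nor with upper-quartile factors, library size alone, log2(TPM + 1) or log2(TPM + 0.1) values, or DESeq2.

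CCND2 (cyclin D2, gene ID 894, chromosome 12 from 4273772 to 4305350, plus strand) was at or near 0, with 2 counts in shNC 1, shNC 2 and shTPX2 1 and 0 in shTPX2 2. These correspond to 0.03, 0.03, 0.03 and 0 TPM. The gene was not tested, and no fold is given because every library was under 3 counts. The D-type cyclin mRNA of these cells was thus that of CCND1 and CCND3. CCND1 made up 76.7% and 62.0% of the summed D-type TPM in shNC and 69.8% and 65.5% in shTPX2, and the shTPX2 shares lay between the controls (exact permutation test, two-sided, p = 1). With 2 libraries against 2 such a test cannot give less than 0.333. The summed D-type TPM of 506 and 477 in shTPX2 also lay between the sums of 538 and 394 in shNC.

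The E-type cyclins were at far lower levels. CCNE1 (cyclin E1, gene ID 898, chromosome 19 from 29811898 to 29824308, plus strand) was at 12.0 and 18.7 TPM in shNC and at 18.8 and 14.1 TPM in shTPX2. The groups overlapped, with shNC 1 the lowest library and shNC 2 level with shTPX2 1. Its log2 fold change was 0.26 (SE 0.30, edgeR adjusted p = 0.854, 95% interval -0.46 to 0.98). It was close to 0 without shNC 1 (0.0038) or shTPX2 1 (0.01), 0.58 without shNC 2 and 0.49 without shTPX2 2, and voom gave -0.01 without shNC 1.

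CCNE2 (cyclin E2, gene ID 9134, chromosome 8 from 94879770 to 94896678, minus strand), the paralog of CCNE1, had the largest log2 fold change of the 9 tested genes. It was at 9.72 and 7.51 TPM in shNC and at 14.7 and 11.9 TPM in shTPX2. Both shTPX2 libraries were above both controls, and the libraries of a group were 1.29-fold (shNC) and 1.23-fold (shTPX2) apart. The fitted level was 1.67-fold higher in shTPX2 (log2 fold change 0.74, SE 0.26, edgeR adjusted p = 0.596 over all tested genes), with a 95% interval from 1.08-fold to 2.60-fold. On the log2 scale it stayed between 0.53 and 0.99 when each library was left out, and CCNE2 no longer met the DEG criteria without shNC 2 or without shTPX2 1. CCNE1 made up 55.2% and 71.3% of the E-type TPM in shNC and 56.1% and 54.1% in shTPX2, and the difference was carried by shNC 2 (exact permutation test, two-sided, p = 0.667). The summed E-type TPM was 21.7 and 26.2 in shNC and 33.5 and 26.0 in shTPX2, so the groups overlapped in the sum.

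**Figure D2:**
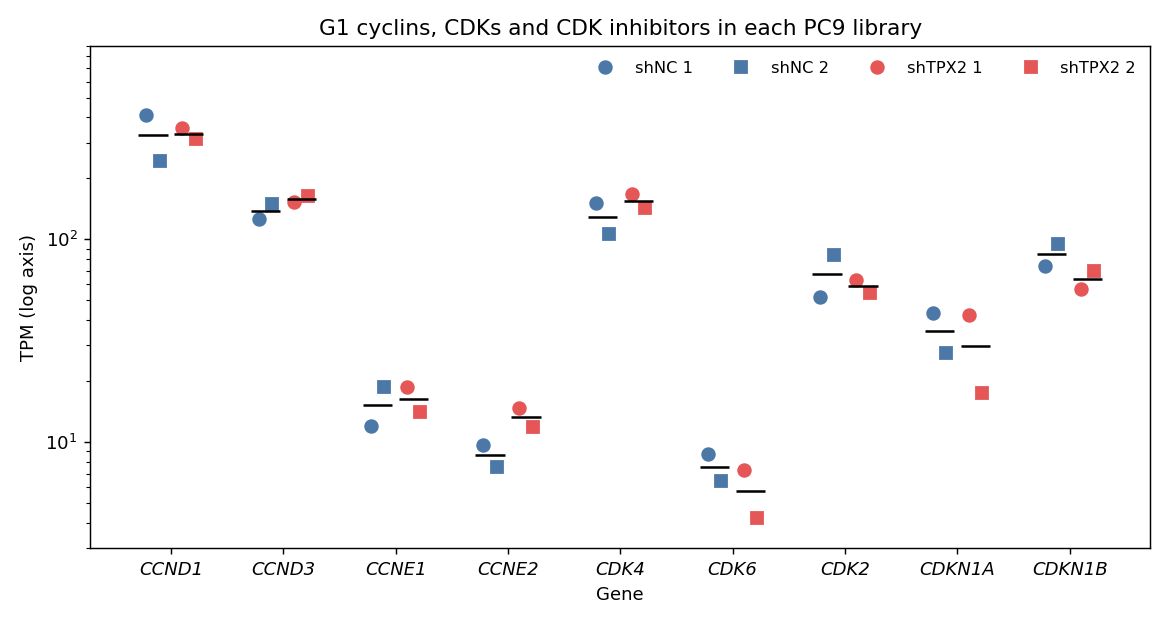
TPM on a log axis of the 9 G1 genes above the floor in each of the 4 libraries, with a bar at each group's mean (n = 2). CCNE2 and CCND3 show both shTPX2 libraries above both shNC libraries, CDKN1B shows both below, and in the other 6 genes the groups overlap; CCND2, at 0.03 TPM or less, is not drawn.

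CDK4 and CDK6 are the partners of the D-type cyclins. CDK4 (gene ID 1019, chromosome 12 from 57747727 to 57756013, minus strand) was at 151 and 106 TPM in shNC and at 167 and 143 TPM in shTPX2. The shTPX2 2 library lay below shNC 1, so the groups overlapped. The overlap was narrow on CPM (counts scaled to library size) with TMM factors, where shNC 1 was at 144.6 and shTPX2 2 at 144.5 CPM. Its log2 fold change was 0.39 (SE 0.23, edgeR adjusted p = 0.728, 95% interval -0.17 to 0.95). It was 0.70 without shNC 1, where CDK4 met the DEG criteria, and 0.13 without shNC 2.

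CDK6 (gene ID 1021, chromosome 7 from 92604921 to 92836594, minus strand), which has the same cyclin partners, was at 8.71 and 6.42 TPM in shNC and at 7.29 and 4.25 TPM in shTPX2. The lowest value was that of shTPX2 2, and the groups overlapped. With a log2 fold change of -0.26 (SE 0.31, edgeR adjusted p = 0.860, 95% interval -1.01 to 0.48) CDK6 did not meet the DEG criteria, though it did without shTPX2 1, at -0.72. The estimate was 0.10 without shTPX2 2 and 0.01 without shNC 1. CDK4 made up 94.6% and 94.3% of the summed TPM of both kinases in shNC and 95.8% and 97.1% in shTPX2. The shTPX2 shares were both above the controls, with a p of 0.333 in the exact two-sided permutation test, the smallest that 2 libraries against 2 allow. On expected counts, which are not corrected for length, the difference in the CDK4 share was 8.10 percentage points instead of 2.04.

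CDK2 (gene ID 1017, chromosome 12 from 55966769 to 55972784, plus strand), the partner of the E-type cyclins, was at 51.9 and 83.9 TPM in shNC and at 63.1 and 54.6 TPM in shTPX2. Both shTPX2 values lay between the controls. edgeR gave a log2 fold change of -0.08 (SE 0.25, adjusted p = 0.957, 95% interval -0.68 to 0.52), with 0.28 without shNC 2 and 0.05 without shTPX2 2.

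CDKN1A (p21, gene ID 1026, chromosome 6 from 36676460 to 36687339, plus strand), the inhibitor that p53 induces after DNA damage, had the widest spread within shTPX2 of the 9 tested genes. It was at 43.5 and 27.6 TPM in shNC and at 42.5 and 17.5 TPM in shTPX2, where the libraries stood 2.43-fold apart. In each group the library numbered 1 was the higher, and the groups overlapped. At -0.11 (SE 0.44, edgeR adjusted p = 0.966), the log2 fold change had the widest 95% interval of the 9 tested genes, from -1.17 to 0.94. It was -0.91 without shTPX2 1, where CDKN1A met the DEG criteria as a lower gene, but 0.40 without shTPX2 2 and 0.28 without shNC 1.

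CDKN1B (p27, gene ID 1027, chromosome 12 from 12715058 to 12722371, plus strand), which holds cyclin E with CDK2 inactive in resting cells, was at 74.3 and 95.2 TPM in shNC and at 57.1 and 70.0 TPM in shTPX2. Both shTPX2 libraries were below both controls. The gap nearly closed on CPM with TMM factors, where shNC 1 was at 89.8 and shTPX2 2 at 89.7 CPM. Its log2 fold change of -0.29 (SE 0.19, edgeR adjusted p = 0.745, 95% interval -0.75 to 0.17) did not meet the DEG criteria, though it did on log2(TPM + 1) and log2(TPM + 0.1) values and without shNC 1, at -0.43. It was -0.13 without shNC 2 and -0.16 without shTPX2 1.

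Counting the genes whose groups did not overlap in TPM, 2 of the 10 were higher in shTPX2 (CCND3 and CCNE2) and 1 was lower (CDKN1B). Of all tested genes 41% did not overlap, 10.7% being higher and 30.3% lower in shTPX2, and on TMM-normalized CPM the share was 39.6%. CDKN1A made up 36.9% and 22.5% of the TPM of CDKN1A and CDKN1B in shNC and 42.7% and 20.0% in shTPX2, so the make-up differed more within each group than between the groups (exact permutation test, two-sided, p = 1). The summed TPM of the inhibitor pair was 118 and 123 in shNC and 99.6 and 87.5 in shTPX2, both shTPX2 values being lower (exact permutation test, two-sided, p = 0.333, the smallest possible).

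**Figure D3:**
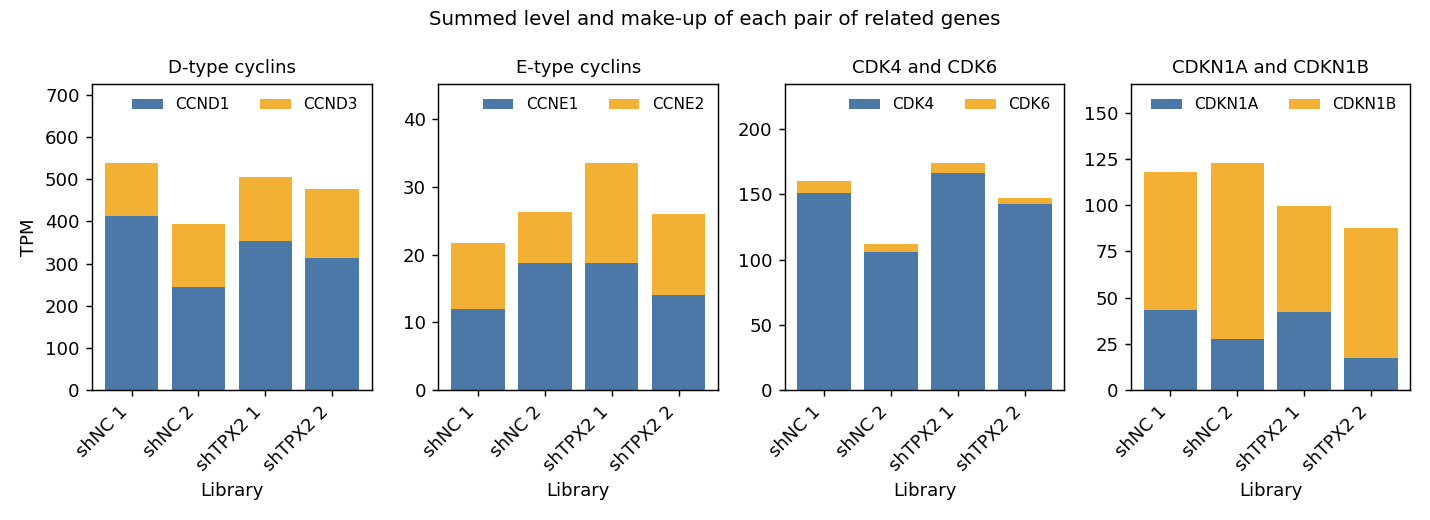
Stacked bars of TPM in each library for CCND1 and CCND3, CCNE1 and CCNE2, CDK4 and CDK6, and CDKN1A and CDKN1B, where the height of a bar is the summed level. CDK4 makes up over 94% of its bar in every library, and the summed level of CDKN1A and CDKN1B is lower in both shTPX2 libraries (99.6 and 87.5 TPM) than in both shNC libraries (118 and 123 TPM).

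Of 31 other G1 regulators, such as the INK4 inhibitors, the RB1 family, E2F factors and the ubiquitin ligase SKP2, 16 were higher and 15 lower in shTPX2, with a median log2 fold change of 0.02. The DEG criteria were met by 3 higher and 4 lower genes of the 31, beside 14.2% of all tested genes. By edgeR 4 were at an unadjusted p under 0.05, beside 8.03% of all tested genes. None passed an adjusted p under 0.05 by edgeR (smallest 0.579). E2F1, an activator of S-phase genes, was at 19.4 and 24.6 TPM in shNC and at 34.96 and 28.9 TPM in shTPX2 (log2 fold change 0.67). CDC25A, the phosphatase that activates CDK2, was at 4.02 and 5.31 TPM in shNC and at 7.97 and 6.60 TPM in shTPX2 (0.78). TFDP1, the dimer partner of E2F factors, was at 147 and 122 TPM in shNC and at 196 and 144 TPM in shTPX2 (0.46), and its groups overlapped.

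The genes with lower levels were inhibitors and regulators of several kinds. CDKN1C (p57), the third CIP/KIP inhibitor, was at 4.61 and 7.76 TPM in shNC and at 2.26 and 1.90 TPM in shTPX2, and its log2 fold change of -1.35 (SE 0.42, adjusted p = 0.579 by edgeR) was the largest in size of the list. E2F5, which acts with repressor complexes, was at 15.98 and 16.7 TPM in shNC and at 9.45 and 10.1 TPM in shTPX2 (-0.62). SKP2, the ligase subunit that marks p27 for degradation, was at 44.4 and 58.1 TPM in shNC and at 40.3 and 27.0 TPM in shTPX2 (-0.44). CCNC, the cyclin of the Mediator kinase, had a log2 fold change of -0.39. CDKN1C, E2F5, SKP2 and CCNC were among the 9 of the 31 regulators with both shTPX2 libraries below both controls in TPM. Another 4 regulators had both above. Over all tested genes the shares were 30.3% below and 10.7% above, so the share below was near that of all genes.

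The INK4 inhibitors gave no such separation. CDKN2A, which encodes p16 and ARF (not told apart in a gene-level value), was at 706 and 519 TPM in shNC and at 638 and 656 TPM in shTPX2, the highest level among the 10 members and the 31 regulators. CDKN2B was at 90.0 and 31.9 TPM in shNC and at 47.1 and 41.9 TPM in shTPX2 (log2 fold change -0.34), CDKN2C at 7.26 and 19.6 against 8.32 and 11.9 TPM (-0.26), and CDKN2D at 6.22 and 18.0 against 6.76 and 7.93 TPM (-0.58). In these 3 genes the control libraries differed more from each other than the shTPX2 libraries did. RB1, the substrate of the G1 kinases, was detected at 23.3 and 17.8 TPM in shNC and at 22.9 and 18.3 TPM in shTPX2 (0.10).

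The E2F-regulated genes of the G1/S transition, downstream of the kinases above, were 22 of 22 above 0 with a median log2 fold change of 0.70. E2F1, CDC25A and CCNA2 were also counted among the 31 other G1 regulators, so the lists are not separate. The DEG criteria were met by 16 of the 22, all higher, among them the replication helicase genes MCM2, MCM3, MCM4, MCM5, MCM6 and MCM7, the polymerase clamp PCNA, and RRM2, MYBL2, UHRF1, CDC6, E2F1 and CDC25A. Of the 22, 15 were at an unadjusted p under 0.05 and 0 at an adjusted p under 0.05 by edgeR. Among all 14048 tested genes 6863 were above 0, and 6.24% met the DEG criteria as higher. By edgeR 8.03% of them were at an unadjusted p under 0.05, in either direction. This list was written with earlier results of these data known, and it leaves out other E2F targets, such as the E-type cyclins. The summed TPM of the list was 1062 and 1275 in shNC and 1902 and 1587 in shTPX2, so shTPX2 1 had the highest sum, as it had the highest CCNE2. CCNE2 is itself an E2F target, and the part of this list's difference in its result was not tested.

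The p53 target genes, to which CDKN1A belongs by its regulation but which were counted without it, were 10 above and 15 below 0 among the 25 tested of 27, with a median of -0.06. The DEG criteria were met by AEN (0.72), GDF15 (0.72) and BAX (0.30), higher, and by ZMAT3 (-0.71), CCNG1 (-0.58) and RRM2B (-0.47), lower. MDM2, the negative regulator of p53, was at 12.7 and 11.8 TPM in shNC and at 11.7 and 12.3 TPM in shTPX2 (0.08). By edgeR 0 of the 25 were at an adjusted p under 0.05 and 5 were at an unadjusted p under 0.05. The shares over all tested genes were 14.2% for the DEG criteria and 8.03% for an unadjusted p under 0.05 by edgeR.

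The profile over the 4 libraries was compared between the 10 members and the 31 regulators, as the Euclidean distance of log2 CPM centred on each gene's mean, where a smaller distance means a more similar profile. Among these 40 tested genes the nearest to CCNE2 and to CDK4 was TFDP1 (0.32 and 0.24), to CCND3 the kinase chaperone CDC37 (0.15), and to CCND1 was CDKN2A (0.27). The nearest to CDK2 was CCNA2, the S-phase cyclin that also binds CDK2 (0.25), to CCNE1 the kinase-binding protein CKS1B (0.14), and to CDKN1B was TFDP2 (0.089). CDK6 and CDKN1A were each other's nearest (0.39), with shTPX2 2 the lowest library for both. These distances rest on 4 libraries and describe them only.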

How the data were processed

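Poly(A) RNA of PC9 cells carrying shNC or shTPX2 (2 libraries each) was sequenced. According to the study's methods, the authors used SOAPnuke for cleaning, HISAT2/Bowtie2 for alignment and RSEM or StringTie for quantification, whereas the submitters' notes name HISAT2, featureCounts, DESeq2 and GRCh38. The deposited table holds expected counts per gene without depth normalization (42.2% to 44.6% of values not whole), and FPKM and TPM values that the authors scaled for length and depth. The authors' mean columns were not used, since over 92% of genes differed by more than 0.01 TPM from the mean of the deposited libraries (92.2% in shNC, 93.1% in shTPX2). The strand setting is not given in the sources used here, so antisense reads cannot be told apart.

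Expected counts were rounded to whole numbers, filtered by filterByExpr (14048 genes kept) and fitted in edgeR 4.0.16 (R 4.3.3) by its quasi-likelihood method with TMM factors. P-values were adjusted by Benjamini-Hochberg over these genes. The DEG criteria used limma 3.58.1 after voom, and DESeq2 1.42.0 was an alternative. The tests were also run on simulated counts of independent libraries with planted changes, as a check of the code only. Its outcome is not reported here, and it does not show how well the tests are calibrated for these libraries. The members and gene lists were chosen with earlier results of these data known. Named genes were the members, TPX2, list genes past the DEG criteria (not all are reported here), the CDKN2 and CDKN1C inhibitors, RB1, and the nearest profile of each member; MDM2 was named outside this rule, after its values were seen. Family shares were compared by exact permutation tests.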

Additional observations from a re-analysis of the deposited data

How the results depend on the processing

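The alternatives comprised RLE and upper-quartile factors, no factors, DESeq2, limma voom, other filters, log2(TPM + 1) and log2(TPM + 0.1), the replicate number as a block, and leaving out each library in turn. CCND3, CCNE2, CDK4 and CDKN1B kept the direction of their log2 fold change under all 14 alternatives. CCNE1 also kept it in these, but its value was close to 0 in 2 of them. The voom fit without shNC 1, which is not among the 14, gave -0.01 for CCNE1. Over the fits that left out a library, in which the lone library of a group is assumed to vary like the others, the log2 fold change ran from -0.21 to 0.60 for CCND1, from -0.36 to 0.28 for CDK2, from -0.72 to 0.10 for CDK6, from -0.91 to 0.40 for CDKN1A, from 0.0038 to 0.58 for CCNE1 and from -0.43 to -0.13 for CDKN1B. The difference in CCND1's share of D-type TPM ran from -9.05 to 5.64 percentage points and that in CDKN1A's share from -9.73 to 12.98 points. CCND2 was under the floor of 3 counts in every library and entered the fit only without the filter on low counts, and no fold is given for it. The adjusted p of a G1 gene ran down to 0.199 at the lowest, for CCNE2.

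Genes at an adjusted p under 0.05 numbered 0 in the edgeR fit, 111 with DESeq2, 1 on log2(TPM + 1), 1 on log2(TPM + 0.1) and 0 to 23 without a library. Genes past the DEG criteria numbered 1998, against 1 with adjusted in place of unadjusted p-values and 1018 to 3515 without a library, with 3515 reached without shNC 1 and 1018 without shTPX2 2. Of the G1 genes, 2 met the criteria, against 1 with upper-quartile factors, 1 on library size only, 1 with DESeq2, 0 with adjusted p-values and 1 to 4 without a library. The cause of these differences was not tested.

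Libraries with the same number in both groups share only a number. The difference between library 1 and library 2 correlated between the groups at r = 0.18 over genes, and 7 of 9 G1 genes had the same sign. With the replicate block 3 G1 genes met the criteria (CCNE2, CCND3 and CDK4), as did 1084 higher and 1363 lower genes overall. The lowest expected count of a tested G1 gene in any library was 211.55, for CCNE2 in shNC 2. How far depth or spread between libraries limits precision was not tested.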
